A study of Mus musculus with 6 samples.

Results

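To examine how the machinery of pre-mRNA splicing is expressed in regenerated T cells, the genes of the main splicing factor families and of the heterogeneous nuclear ribonucleoproteins (hnRNPs) were compared between induced T (iT) cells of the CD4 single-positive (CD4SP) and the CD8 single-positive (CD8SP) kind. Genes were taken by name, as the rows whose symbols start with Srsf, Hnrnp, Sf3a, Sf3b, Snrp, U2af or Prpf, and 65 of the 23420 rows of the expression table matched. Of these, 63 reached 1 TPM (a length-corrected abundance with a fixed total per library) in at least 3 of the 6 libraries, and they are described here among 10476 genes that met the same filter. The other two were Hnrnpul1, at 0.885, 0.544 and 6.02 TPM in the CD4SP libraries and 0.613, 0.688 and 2.09 TPM in the CD8SP libraries, and Srsf12, at 1.004, 0 and 0.441 TPM in the CD4SP libraries and 0.217, 0.111 and 0.539 TPM in the CD8SP libraries. Just inside the filter lay Sf3a2 and Prpf40b, whose third-highest values were 1.51 and 2.14 TPM, and just outside it lay Hnrnpul1, whose third-highest value was 0.885 TPM.

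Both populations came from spleens of B-NDG mice, an immunodeficient NOD strain with the Prkdc scid mutation and no Il2rg, which were irradiated as young adults and transplanted with blood progenitors made from C57BL/6 pluripotent stem cells. All donor cells carried a doxycycline-inducible Runx1-p2a-Hoxa9 cassette at the Rosa26 locus, from selected clones, and doxycycline was given in culture. The CD4SP group and the CD8SP group held 3 libraries each, every one made from 1000 sorted cells (donor CD45.2+ cells), and both groups share the host, the cassette and the culture. Whether CD4SP and CD8SP libraries of 1 number share a mouse is not given in the sources used here, nor is it given whether the 3 libraries of a group came from separate mice. The study calls its libraries biological replicates, and p-values measure the spread between these 3.

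Splicing removes introns in a spliceosome built from small nuclear ribonucleoproteins (snRNPs), in which a ring of Sm proteins surrounds the U1, U2, U4 and U5 RNAs. U1 marks the start of an intron, U2AF and then U2 with its SF3A and SF3B complexes mark the end and the branch point, and PRP factors bring in the U4/U6.U5 tri-snRNP and remodel the assembly. SR proteins mostly promote the use of exons they bind and hnRNPs often oppose it, and in T cells hnRNPL and its relative hnRNPLL act on the variable exons of Ptprc, which encodes CD45. The table gives 1 value per gene, so it holds the abundance of these factors and not the splicing they carry out.

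The family was abundantly expressed in both populations. By mean TPM, which is corrected for length, 27 of the 63 genes lay at 100 TPM or more, 31 between 10 and 100 TPM and 5 under 10 TPM, and 59 were at 1 TPM or more in every library. The most abundant genes encode Sm proteins, with Snrpb at a mean of 761.5 TPM, Snrpe at 755.6 TPM and Snrpg at 691.5 TPM over the 6 libraries. The 10 genes of highest mean TPM held 50.6% ± 4.13 (SD, n = 3) of the family's TPM in the CD4SP and 52.2% ± 1.02 (SD, n = 3) in the CD8SP libraries, and these shares overlapped (exact two-sided permutation p = 0.6). At the low end stood Sf3a2, a subunit of SF3A, at 1.07, 0 and 1.56 TPM in the CD4SP libraries and 1.04, 1.51 and 1.82 TPM in the CD8SP libraries, and it was the 1 gene listed at 0 in a library. Its transcripts share 429 nt with those of Plekhj1, listed at up to 84.1 TPM, and how reads were shared between them was not stated, so its values are uncertain.

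Most of the family did not pass the test between CD4SP and CD8SP iT cells, and the member called with a difference over 2-fold was Snrpn. Genes were called with limma on log2(TPM + 1) at an adjusted p below 0.05. Requiring a difference over 2-fold as well, no family member was called higher in CD4SP (also 0 at an unadjusted p below 0.05), where 7.92% of all tested genes were, and 1, Snrpn, was called higher in CD8SP, where 1.8% of all tested genes were. On the adjusted p alone, 6 of 63 were called higher in CD4SP against 17.6% of all tested genes, and 1 of 63 was called higher in CD8SP against 3.23%. The remaining 56 were not called, which does not show that their levels were equal. At an unadjusted p below 0.05 in limma, 19 members were higher in CD4SP and 1 was higher in CD8SP, where 31.4% and 5.69% of all tested genes were. The median log2 fold change (CD4SP minus CD8SP) of the 63 genes was 0.20 beside 0.28 for all tested genes. In bulk libraries fewer cells expressing a gene and less of its RNA per cell cannot be told apart.

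**Figure D1:**
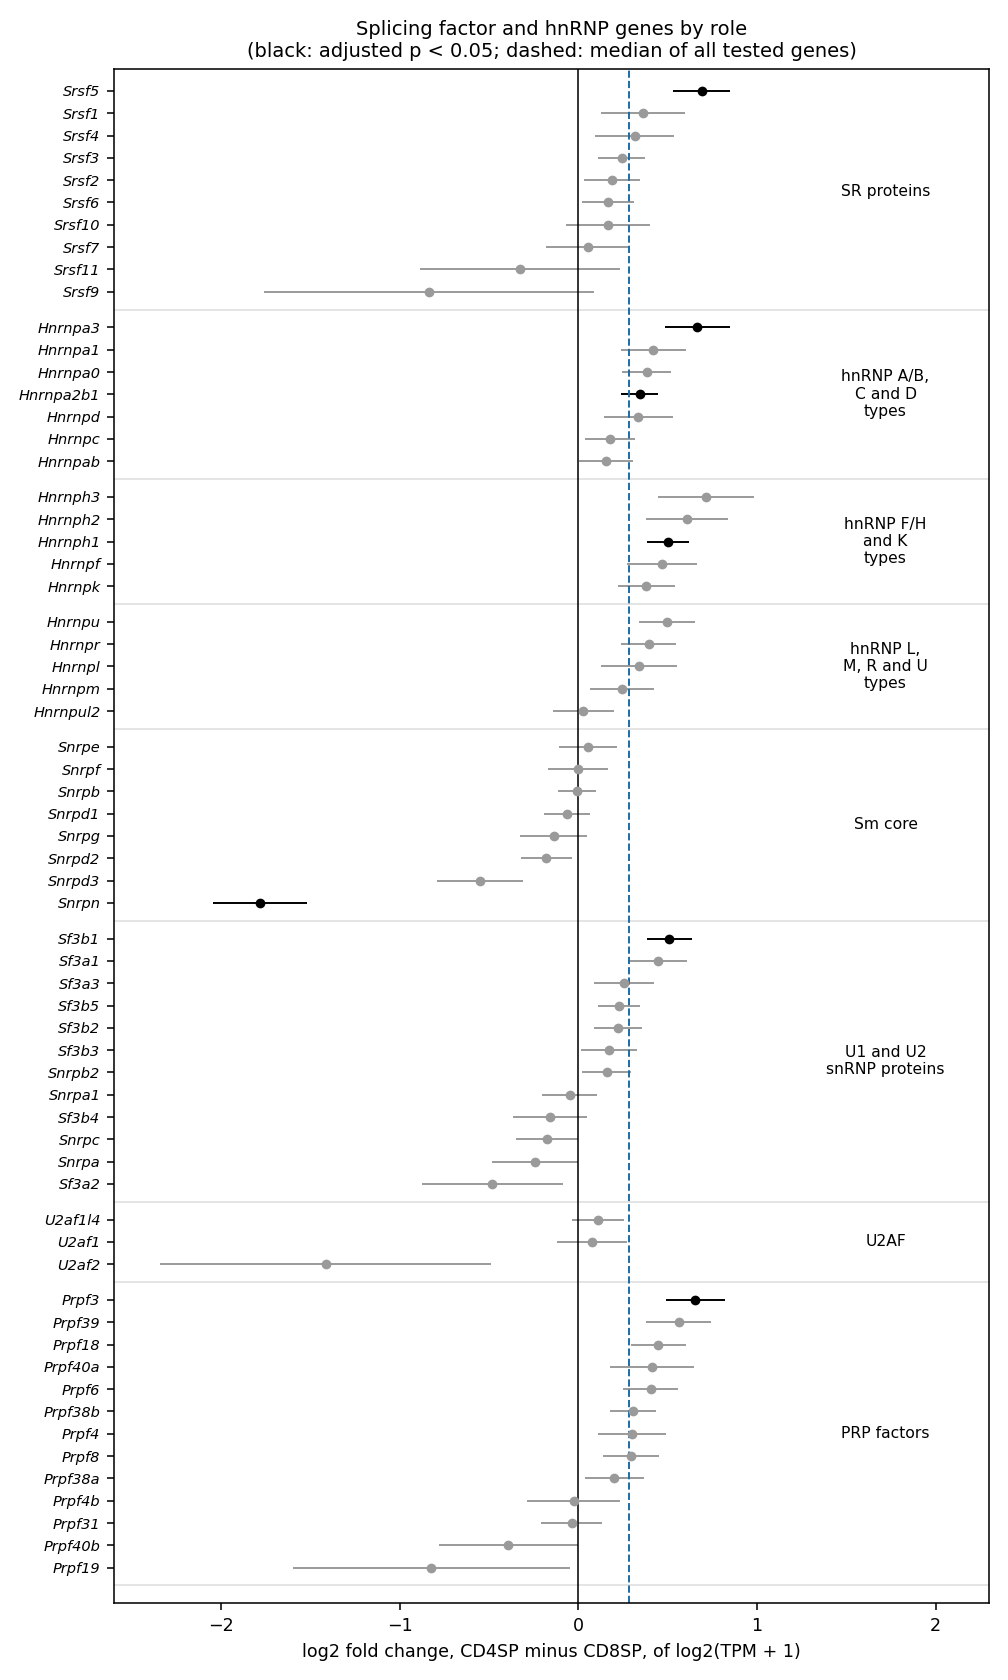
The log2 fold change of log2(TPM + 1), CD4SP minus CD8SP, is plotted for each of the 63 genes by role, with bars of 1 SE, black where the limma adjusted p was below 0.05 and grey elsewhere. Snrpn lies farthest to the left at -1.78, all 17 hnRNP genes lie right of 0 on this scale (13 after median-of-ratios rescaling), and the dashed line marks the median of all tested genes at 0.28.

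These calls, apart from that of Snrpn, depended on how libraries are scaled and on which libraries were used. TPM is a share of each library, and ribosomal protein genes took 25.8% ± 2.58 (SD, n = 3) of it in the CD4SP libraries and 33.6% ± 2.06 (SD, n = 3) in the CD8SP libraries. After median-of-ratios rescaling, which sets the libraries level at their typical gene, the median log2 fold change of the family was -0.10 beside 0.0002 for all tested genes. Under that scaling no member was called higher in CD4SP in limma, against 8.43% of all tested genes, and Snrpn alone was called higher in CD8SP, against 7.46%. At an unadjusted p below 0.05 these counts were 3 and 8, beside 15.2% and 15.3% of all tested genes, with 4 of the 8 in the Sm core and 4 among the U1 and U2 snRNP proteins. CD4SP replicate 2 was the lowest CD4SP library for 47 of the 63 genes (74.6%), compared with 57.9% of all tested genes. Without it, 20 of 63 members were called higher in CD4SP, where 28.7% of all tested genes were, and Snrpn was again called higher in CD8SP. Leaving out any other library lowered the number called higher in CD4SP from 6, to 2 without CD4SP replicate 1 (11.5% of all tested genes) or CD8SP replicate 2 (9.01%), and to 0 without CD4SP replicate 3 (10.4%), CD8SP replicate 1 (8.72%) or CD8SP replicate 3 (10.5%). The family's median log2 fold change was 0.33 without CD4SP replicate 2 and 0.12 without CD4SP replicate 3. All 3 CD4SP libraries lay above all 3 CD8SP libraries for 19 of 63 genes (30.2%), compared with 36.6% of all tested genes, and the reverse held for 1 gene (1.59%), compared with 6.61%.

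Snrpn encodes SmN, a close relative of the Sm ring protein SmB, and is an imprinted gene read from the paternal copy. It was at 2.11, 1.37 and 2.90 TPM in the CD4SP libraries and 11.1, 9.77 and 7.95 TPM in the CD8SP libraries. The populations did not overlap, and the lowest CD8SP library stood well above the highest CD4SP library. Mean TPM in CD8SP was 4.52 times that in CD4SP, and the log2 fold change was -1.78 (with an SE of 0.26, adjusted p 0.00288 in limma). Across all 17 alternative settings its log2 fold change stayed between -2.17 and -1.60, with adjusted p in limma from 0.000613 to 0.018. Snrpb, which encodes SmB, was at 813.6, 691.7 and 775.0 TPM in the CD4SP libraries and 791.8, 783.9 and 713.1 TPM in the CD8SP libraries, which overlapped. SmN transcripts were therefore a small part of the SmB and SmN total. They held 0.277% ± 0.0887 (SD, n = 3) in the CD4SP and 1.24% ± 0.141 (SD, n = 3) in the CD8SP libraries. The shares did not overlap (exact two-sided permutation p = 0.1, the smallest that 3 against 3 can give). A single scaling factor per library cannot move them. The Snrpn transcript also carries the frame of Snurf, which shares 206 nt with it and was listed at 0 in all CD4SP libraries and at 0.0436, 0.621 and 0 TPM in the CD8SP libraries. How reads were shared between them, and with the copy Gm5802 that is 95.3% identical over 700 nt, was not stated.

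**Figure D2:**
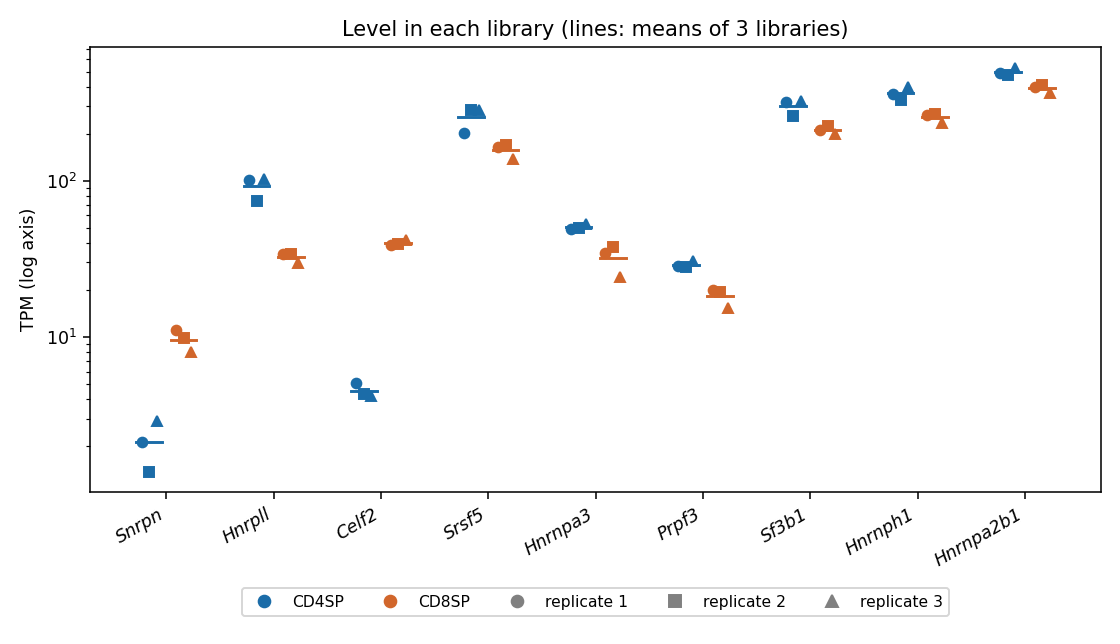
TPM on a log axis is plotted for 9 genes in each library, CD4SP in blue and CD8SP in orange, with a marker shape per replicate and a line at each mean of 3 libraries. Snrpn and Celf2 have all CD8SP libraries far above all CD4SP libraries, Hnrpll shows the reverse, and the other 6 genes have smaller steps toward CD4SP on the deposited scale.

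The sequence before the start sites of the called genes was read next, to set Snrpn beside the others. RefSeq promoter windows of 300 bases (250 before and 50 after a start, GRCm38.p6) were matched for 55 of the 63 genes, giving 76 windows. They had a median GC content of 60.0% and 25 CpG, beside 60.7% and 21 for the 9878 windows of tested genes and 52.7% and 7 for all 32851 windows. Shown are the 100 bases before a start, 5′ to 3′, for Snrpn and the other members called on the adjusted p, at the outermost start of each. Capitals mark matches on either strand to CCGGAA (the core bound by ETS factors), GGGCGG (the GC box), CCAAT or TATAAA, which may overlap. Snrpn, with 4 starts, 2 of them with a match in the 100 bases before, is shown at those 2, its outermost start (chr7:60450178-60450277, minus strand) and its innermost start (chr7:60005200-60005299, minus strand). Srsf5 (chr12:80945399-80945498, plus strand), Hnrnpa3 (chr2:75659159-75659258, plus strand), Hnrnph1 (chr11:50376890-50376989, plus strand), Hnrnpa2b1 (chr6:51469895-51469994, minus strand), Sf3b1 (chr1:55027479-55027578, minus strand) and Prpf3 (chr3:95855886-95855985, minus strand) follow. Of these, Hnrnph1 has 5 starts, 2 of them with a match in the 100 bases before, Hnrnpa2b1 has 2, both with a match, and Prpf3 has 2, of which the one not shown holds 3 matches to CCGGAA.
Snrpn outermost: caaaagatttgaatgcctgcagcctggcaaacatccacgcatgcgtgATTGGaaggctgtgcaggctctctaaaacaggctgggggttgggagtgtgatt
Snrpn innermost: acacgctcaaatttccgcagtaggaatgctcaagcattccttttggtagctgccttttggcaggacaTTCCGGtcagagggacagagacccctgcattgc
Srsf5: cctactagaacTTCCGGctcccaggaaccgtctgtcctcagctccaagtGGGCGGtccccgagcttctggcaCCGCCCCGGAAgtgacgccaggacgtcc
Hnrnpa3: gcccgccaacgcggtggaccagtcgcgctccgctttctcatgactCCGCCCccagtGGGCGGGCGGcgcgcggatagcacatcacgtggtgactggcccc
Hnrnph1: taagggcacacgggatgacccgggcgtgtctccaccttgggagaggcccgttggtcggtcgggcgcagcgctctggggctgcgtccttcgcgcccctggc
Hnrnpa2b1: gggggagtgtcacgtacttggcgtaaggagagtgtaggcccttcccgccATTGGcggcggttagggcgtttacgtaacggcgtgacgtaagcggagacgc
Sf3b1: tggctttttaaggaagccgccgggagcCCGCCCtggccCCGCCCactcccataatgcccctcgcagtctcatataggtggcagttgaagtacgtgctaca
Prpf3: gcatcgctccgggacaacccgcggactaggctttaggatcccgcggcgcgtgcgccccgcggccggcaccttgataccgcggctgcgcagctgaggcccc

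Snrpn stood apart from the other called genes in base composition. Its 4 windows held 2 to 7 CpG at 40.3% to 48.0% GC, whereas the 12 windows of the other 6 called genes held 20 to 44 CpG at 53.3% to 70.3% GC. All Snrpn starts but the innermost have similar sequence before them, so its windows are not separate observations. Its outermost start lies outside its GENCODE position (chromosome 7, 59982495 to 60140219), and which start these cells used is unknown. Over the 76 windows of the family, CCGGAA was found in 47.4%, beside 29.9% of windows of tested genes and 14.9% of all windows. GGGCGG was found in 61.8%, beside 63.1% of windows of tested genes and 35.7% of all windows. CCAAT was in 48.7% of the family's windows, 38.2% of those of tested genes and 37.4% of all, and TATAAA in 9.21%, 6.82% and 13.6%. These are matches of letters in a window, described with no test, and several windows of 1 gene can overlap.

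Among the SR proteins, which bind exons and recruit U1 and U2AF, the clearest difference was that of Srsf5. Srsf5 (chromosome 12, 80945504 to 80950507) was at 202.9, 282.1 and 282.2 TPM in the CD4SP libraries and 163.5, 169.9 and 137.3 TPM in the CD8SP libraries. Every CD4SP library lay above every CD8SP library, with a log2 fold change of 0.69 (with an SE of 0.16, adjusted p 0.0195 in limma). It was called in 9 of 17 alternatives, and after median-of-ratios rescaling its log2 fold change was 0.38. Srsf2, the most abundant SR gene, was at 319.7, 309.6 and 426.2 TPM in the CD4SP libraries and 280.9, 284.8 and 355.2 TPM in the CD8SP libraries. Its transcripts share 460 nt with those of Mettl23, listed at up to 451.8 TPM, so this level is uncertain too. Srsf3 was at 275.6, 236.8 and 310.8 TPM in the CD4SP libraries and 225.2, 216.0 and 251.4 TPM in the CD8SP libraries. Both overlapped between the populations, with log2 fold changes of 0.19 and 0.24 whose sign turned after rescaling. Of the 10 SR genes 1 was called higher in CD4SP, beside 17.6% of all tested genes, 8 had log2 fold changes above 0, and after median-of-ratios rescaling 3 did. The medians of all tested genes on these scales were 0.28 and 0.0002.

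Among the SR genes, Srsf9 and Srsf11 had the widest spread between libraries of 1 population. Srsf9, which encodes a small SR protein, was at 0.593, 10.5 and 0.545 TPM in the CD4SP libraries and 9.60, 0.593 and 8.55 TPM in the CD8SP libraries, so high and low libraries were found in both populations (log2 fold change -0.84 with an SE of 0.92, adjusted p 0.539 in limma). Srsf11, an SR-related factor, was at 170.1, 32.8 and 182.0 TPM in the CD4SP libraries and 132.2, 136.8 and 112.9 TPM in the CD8SP libraries. Its low value was that of CD4SP replicate 2, and without that library its log2 fold change moved from -0.33 to 0.47 (adjusted p 0.0265 in limma). Across the family, log2(TPM + 1) spanned more than 2 within a population for 4 of 63 genes (6.35%), compared with 3.51% of all tested genes.

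The hnRNPs, which coat nascent transcripts and often mask splice sites, had log2 fold changes above 0 for all 17 genes on the deposited scale, with a median of 0.38. Most tested genes also lay above 0 on that scale. Of the 17, 3 were called higher in CD4SP in limma, beside 17.6% of all tested genes, and 11 were at an unadjusted p below 0.05, beside 31.4%. None was called higher in CD8SP in limma, beside 3.23% of all tested genes (0 at an unadjusted p below 0.05, beside 5.69%). Their medians were 0.34 for the A/B, C and D types, 0.50 for the F/H and K types and 0.34 for the L, M, R and U types, beside 0.28 for all tested genes. After median-of-ratios rescaling, 13 of the 17 remained above 0, namely 5 of 7, 5 of 5 and 3 of 5 in these groups, and none was called higher in CD4SP in limma, beside 8.43% of all tested genes (1 at an unadjusted p below 0.05, beside 15.2%).

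In the A/B, C and D group, Hnrnpa2b1 (chromosome 6, 51460932 to 51469894), an abundant packaging hnRNP, was at 490.8, 476.2 and 530.4 TPM in the CD4SP libraries and 400.1, 413.1 and 367.0 TPM in the CD8SP libraries. Its populations did not overlap, and the step was small, with a log2 fold change of 0.34 (with an SE of 0.10, adjusted p 0.0495 in limma) that turned to -0.024 with the length and GC correction and was called in 3 of 17 alternatives. Hnrnpa3 (chromosome 2, 75659261 to 75669407) was at 49.3, 49.8 and 53.0 TPM in the CD4SP libraries and 34.5, 37.6 and 24.2 TPM in the CD8SP libraries, again without overlap (log2 fold change 0.67 with an SE of 0.18, adjusted p 0.0348 in limma, called in 5 of 17 alternatives). It has 28 annotated near-identical copies, and Hnrnpa1 and Hnrnpf have 9 each, so these values are uncertain. Hnrnpa1, whose product represses many alternative exons, was at 206.7, 198.7 and 220.1 TPM in the CD4SP libraries and 183.6, 177.8 and 115.0 TPM in the CD8SP libraries. Hnrnpab was at 280.0, 203.6 and 282.4 TPM in the CD4SP libraries and 233.2, 240.3 and 208.7 TPM in the CD8SP libraries. Neither passed the test (adjusted p 0.131 and 0.487 in limma), and the populations overlapped for Hnrnpab but not for Hnrnpa1.

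The F/H and K group had the highest median. Hnrnph1 (chromosome 11, 50376990 to 50386528), which binds G-rich stretches, was at 360.5, 329.9 and 397.2 TPM in the CD4SP libraries and 262.7, 268.2 and 234.1 TPM in the CD8SP libraries. The populations did not overlap, with a log2 fold change of 0.50 (with an SE of 0.12, adjusted p 0.0193 in limma, called in 5 of 17 alternatives) that became 0.20 after rescaling. Its relative Hnrnpf was at 349.6, 273.3 and 320.1 TPM in the CD4SP libraries and 255.4, 273.2 and 164.5 TPM in the CD8SP libraries, where the lowest CD4SP and the highest CD8SP library were nearly equal. Hnrnph3 was at 21.1, 27.3 and 22.3 TPM in the CD4SP libraries and 14.8, 19.7 and 9.05 TPM in the CD8SP libraries. Hnrnph2 was at 29.8, 52.0 and 51.2 TPM in the CD4SP libraries and 26.1, 26.2 and 31.7 TPM in the CD8SP libraries. Their log2 fold changes of 0.72 and 0.61 were among the largest of the family, but their spread between libraries was also large (adjusted p 0.0918 and 0.0921 in limma).

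In the L, M, R and U group no member was called in limma, beside 17.6% (CD4SP) and 3.23% (CD8SP) of all tested genes. At an unadjusted p below 0.05, 2 of 5 were higher in CD4SP, beside 31.4%. Without CD4SP replicate 2, Hnrnpu and Hnrnpm were called higher in CD4SP (adjusted p 0.0175 and 0.0441 in limma), beside 28.7% of all tested genes. Hnrnpu, a nuclear scaffold protein, was at 131.8, 103.5 and 135.1 TPM in the CD4SP libraries and 89.7, 96.8 and 74.7 TPM in the CD8SP libraries, which did not overlap (log2 fold change 0.50, adjusted p 0.054 in limma). Hnrnpr was at 53.0, 63.4 and 72.8 TPM in the CD4SP libraries and 46.4, 50.7 and 45.2 TPM in the CD8SP libraries. Hnrnpm was at 157.9, 112.0 and 172.2 TPM in the CD4SP libraries and 130.0, 132.3 and 106.1 TPM in the CD8SP libraries. Hnrnpr did not overlap between the populations and Hnrnpm did, and neither passed the test (adjusted p 0.101 and 0.352 in limma). Hnrnpl was at 13.9, 15.1 and 14.1 TPM in the CD4SP libraries and 9.48, 9.83 and 14.8 TPM in the CD8SP libraries, where CD8SP replicate 3 reached the CD4SP level (log2 fold change 0.34, adjusted p 0.277 in limma).

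The largest hnRNP difference belonged to a gene that the name rule missed. The table lists Hnrnpll under its older symbol Hnrpll (chromosome 17, 80029487 to 80062334), and it was at 101.2, 73.6 and 102.6 TPM in the CD4SP libraries and 34.0, 33.8 and 29.6 TPM in the CD8SP libraries. The lowest CD4SP library was far above the highest CD8SP library, mean TPM in CD4SP was 2.85 times that in CD8SP, and the log2 fold change was 1.47 (with an SE of 0.17, adjusted p 0.000783 in limma). It was called in all 17 alternatives, with log2 fold changes from 1.05 to 1.62. The ratio of Hnrpll to Hnrnpl TPM cannot be moved by a single scaling factor per library. It was 7.28, 4.87 and 7.28 in CD4SP and 3.58, 3.44 and 1.99 in CD8SP libraries (exact two-sided permutation p = 0.1, the smallest possible). Ptprc, whose exons both proteins act on, was at 71.7, 23.7 and 53.3 TPM in the CD4SP libraries and 48.5, 48.0 and 38.5 TPM in the CD8SP libraries, which overlapped, and its isoforms were not analysed here. Another pair of family genes stood under older symbols. Hnrpdl, now Hnrnpdl, had a log2 fold change of 0.15 (adjusted p 0.407 in limma), and 0610009D07Rik, now Sf3b6, one of 0.33 (adjusted p 0.0777 in limma).

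In the Sm core, the ring of proteins shared by the spliceosomal snRNPs, Snrpn was the 1 gene of 8 called, beside 3.23% of all tested genes called higher in CD8SP. The libraries of the other 7 overlapped between the populations, where 36.6% of all tested genes had every CD4SP library above and 6.61% every CD8SP library above. Snrpe was at 600.5, 944.8 and 781.9 TPM in the CD4SP libraries and 781.1, 698.1 and 727.3 TPM in the CD8SP libraries, so the CD8SP values lay inside the CD4SP range (log2 fold change 0.054, adjusted p 0.83 in limma). Snrpd3 was at 94.7, 87.2 and 127.6 TPM in the CD4SP libraries and 128.6, 119.4 and 217.3 TPM in the CD8SP libraries. It had 1 high CD8SP library (log2 fold change -0.55 with an SE of 0.24, adjusted p 0.136 in limma). With the replicate number as a block it was called higher in CD8SP (adjusted p 0.0477 in limma), beside 2.54% of all tested genes. Of the 8 genes 7 had log2 fold changes below 0 and their median was -0.10, and after median-of-ratios rescaling all 8 were below 0 with a median of -0.41. The medians of all tested genes on these scales were 0.28 and 0.0002. Snrpe, Snrpf and Snrpg, which encode small ring subunits, were all highest in CD4SP replicate 2 among the CD4SP libraries, the library in which most family genes were lowest.

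Among the 12 proteins of the U1 and U2 snRNPs 1, Sf3b1, was called higher in CD4SP and none in CD8SP, beside 17.6% and 3.23% of all tested genes. Sf3b1 (chromosome 1, 54985169 to 55027481) encodes the large SF3B subunit that holds the branch point helix, and it was at 321.2, 258.8 and 324.5 TPM in the CD4SP libraries and 210.2, 222.9 and 198.5 TPM in the CD8SP libraries. The populations did not overlap (log2 fold change 0.51 with an SE of 0.13, adjusted p 0.0247 in limma), and it was called in 4 of 17 alternatives. Its small partner Sf3b5 was at 271.2, 238.3 and 259.2 TPM in the CD4SP libraries and 235.6, 223.3 and 197.8 TPM in the CD8SP libraries, a narrow gap that did not pass (log2 fold change 0.23, adjusted p 0.192 in limma). Of the SF3A and SF3B subunits in the family, Sf3a1, Sf3a3, Sf3b2 and Sf3b3 had log2 fold changes from 0.17 to 0.45 and Sf3a2 and Sf3b4 had -0.48 and -0.16, none called. The U1 proteins Snrpa and Snrpc, at log2 fold changes of -0.24 and -0.17, and the U2 proteins Snrpa1 and Snrpb2, at -0.049 and 0.16, were also not called. Snrpa1 and Snrpc were called higher in CD8SP with the length and GC correction, beside 8.01% of all tested genes, and Snrpa was without CD8SP replicate 3, beside 2.24%.

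U2AF recognises the polypyrimidine tract and the AG at the end of an intron. U2af2, its large subunit, was at 34.4, 1.44 and 41.4 TPM in the CD4SP libraries and 36.0, 39.4 and 45.4 TPM in the CD8SP libraries. The value of CD4SP replicate 2 was far below all others, and the log2 fold change was -1.41 (with an SE of 0.93, adjusted p 0.3 in limma) with it and -0.085 without it. The small subunit gene U2af1 was at 25.4, 34.5 and 36.8 TPM in the CD4SP libraries and 31.9, 25.0 and 34.5 TPM in the CD8SP libraries. Its relative U2af1l4 was at 73.6, 99.6 and 85.3 TPM in the CD4SP libraries and 83.5, 80.9 and 73.8 TPM in the CD8SP libraries. Both overlapped, and no U2AF gene was called in limma (0 of 3 at an unadjusted p below 0.05), where 17.6% of all tested genes were called higher in CD4SP and 3.23% in CD8SP (31.4% and 5.69% at an unadjusted p below 0.05). Over 861 nt U2af1l4 is 100% identical to Gm49396. U2af1 has 3 annotated near-identical copies and U2af2 has 2, so the values of these genes are uncertain.

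Of the 13 PRP factors 1, Prpf3, was called higher in CD4SP, beside 17.6% of all tested genes. Prpf3 (chromosome 3, 95830124 to 95855885), a protein of the U4/U6 snRNP, was at 28.5, 28.2 and 30.4 TPM in the CD4SP libraries and 19.9, 19.3 and 15.3 TPM in the CD8SP libraries, without overlap (log2 fold change 0.66 with an SE of 0.16, adjusted p 0.0256 in limma, called in 5 of 17 alternatives). Prpf38b, the most abundant of the group, was at 95.3, 91.5 and 112.9 TPM in the CD4SP libraries and 81.7, 78.3 and 80.7 TPM in the CD8SP libraries. Prpf38a was at 62.1, 48.1 and 63.1 TPM in the CD4SP libraries and 49.0, 57.0 and 44.0 TPM in the CD8SP libraries. Prpf38b did not overlap but did not pass the test (adjusted p 0.119 in limma), and Prpf38a overlapped. Prpf19, a ubiquitin ligase that joins the spliceosome at activation, was at 8.87, 0.0276 and 8.83 TPM in the CD4SP libraries and 6.77, 7.81 and 7.05 TPM in the CD8SP libraries, again with CD4SP replicate 2 apart, and its log2 fold change of -0.82 turned to 0.26 without that library. Prpf8, the central protein of U5, had a log2 fold change of 0.30 (adjusted p 0.209 in limma).

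To compare the makeup of the family, each role group was taken as a percentage of the summed TPM of the 63 genes. A single scaling factor per library cannot move these shares. The sum itself was 9152.7 ± 653.3 TPM (SD, n = 3) in the CD4SP and 8141.8 ± 138.3 TPM (SD, n = 3) in the CD8SP libraries, with all CD4SP libraries above (exact two-sided permutation p = 0.1, the smallest possible). The sum was 12.4% higher in CD4SP, and 7.79% higher without CD4SP replicate 3, but after median-of-ratios rescaling the difference turned to -9.18%. As a share of TPM outside ribosomal protein genes it was 1.24% ± 0.075 (SD, n = 3) and 1.23% ± 0.0272 (SD, n = 3), respectively, which overlapped. The Sm core held 30.2%, 39.7% and 31.3% in CD4SP and 39.1%, 36.8% and 42.1% in CD8SP libraries, where CD4SP replicate 2 lay within the CD8SP range (exact permutation p = 0.3). The hnRNP F/H and K types held 11.3%, 9.76% and 10.5% in CD4SP and 8.78%, 9.41% and 7.29% in CD8SP libraries. U2AF, whose genes all have near-identical copies, held 1.51%, 1.55% and 1.65% in CD4SP and 1.82%, 1.79% and 1.92% in CD8SP libraries. Those were the 2 of 8 role groups whose populations did not overlap (exact permutation p = 0.1 each, 0.32 after Benjamini-Hochberg adjustment over the 8 groups). Without CD4SP replicate 2, whose Sm core share lay within the CD8SP range, the number was 7. With a library left out, populations separate more readily, and the shares move together because they add up to a whole. This larger number was not tested.

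**Figure D3:**
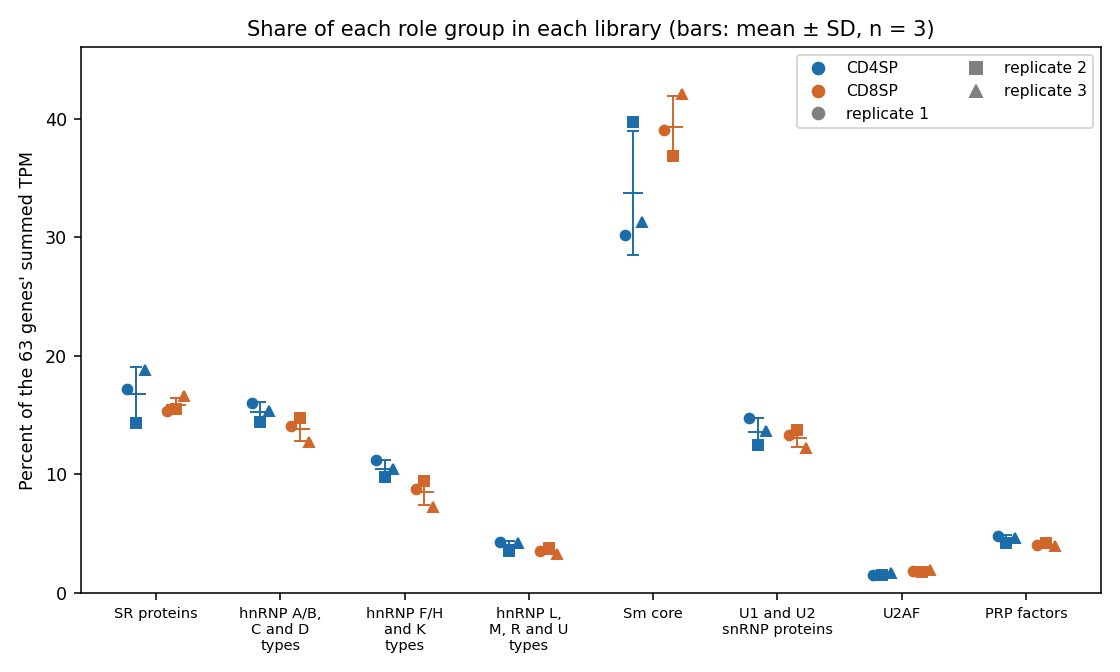
The percentage of the 63 genes' summed TPM held by each role group is plotted for each library, CD4SP in blue and CD8SP in orange, with bars for the mean and SD of 3 libraries. The Sm core of CD4SP replicate 2, at 39.7%, lies among the CD8SP libraries and not with the other CD4SP libraries at 30.2% and 31.3%.

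Log2 fold change varied with transcript length. Across the 63 genes, log2 fold change and log2 length of the longest transcript had a Pearson r of 0.29 and a Spearman rho of 0.42, and across 10390 tested genes 0.12 and 0.17. All points share the same 6 libraries, and genes are not independent replicates. In the family the 4 genes of up to 1000 nt had a median log2 fold change of 0.026, the 9 genes of 1000 to 2000 nt one of -0.14, the 31 genes of 2000 to 4000 nt one of 0.23 and the 18 genes of 4000 to 8000 nt one of 0.32. The medians of all tested genes of these lengths were 0.066, 0.20, 0.27 and 0.36, so the shortest family genes did not have the lowest median. The Sm core is short, with a median of 1237.5 nt, and the hnRNP genes are longer. With the length and GC correction, which also centres each library, the median log2 fold change was -0.34 for the Sm core, with all 8 genes below 0, and 0.044 for the 17 hnRNP genes, 11 of them above 0. Under the deposited scale these medians were -0.10 and 0.38. The median of all tested genes was -0.026 with the correction and 0.28 on the deposited scale.

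**Figure D4:**
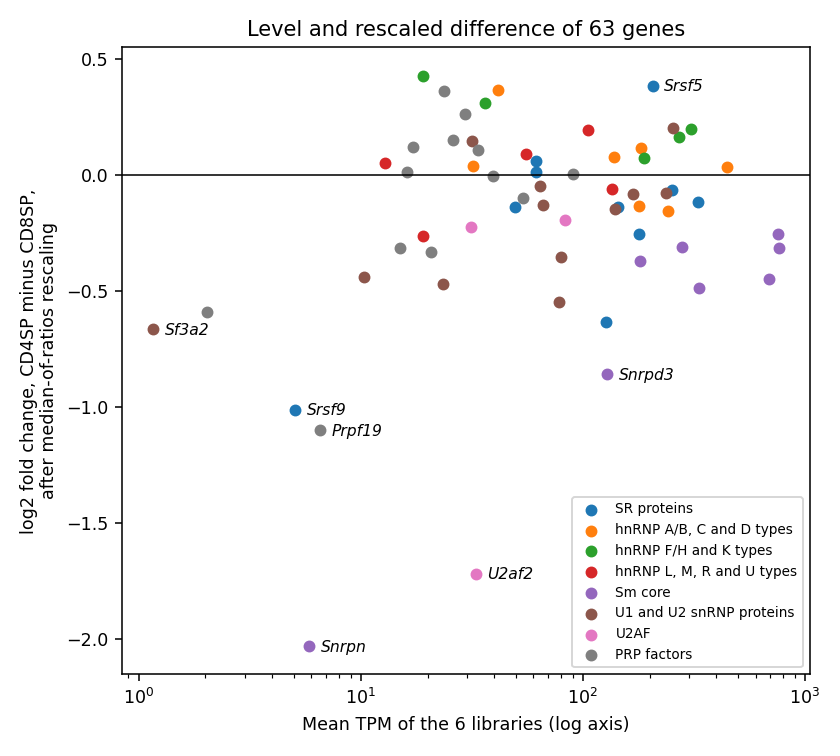
The log2 fold change after median-of-ratios rescaling, CD4SP minus CD8SP, is plotted against mean TPM on a log axis, with 1 point per gene coloured by role. Snrpn lies lowest at -2.03 and the Sm core points lie below 0, while U2af2, Prpf19 and Srsf9, whose libraries of 1 population disagreed, lie at -1.01 or below.

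Other genes of the splicing pathway, 132 tested of 135 listed, were compared in the same fit, and Celf2 had the largest difference among those called. On the adjusted p alone 24 of the 132 (18.2%) were called higher in CD4SP and 1 was called higher in CD8SP, beside 17.6% and 3.23% of all tested genes. After median-of-ratios rescaling these counts were 4 and 7, beside 8.43% and 7.46% of all tested genes. Without CD4SP replicate 2 the number higher in CD4SP was 35 (28.7% of all tested genes), without CD4SP replicate 1 it was 10 (11.5%), and without any 1 of the other libraries it was 6 (8.72% to 10.5%). The gene higher in CD8SP was Celf2, an RNA-binding regulator of alternative exons that is known from T cells. Celf2 was at 5.06, 4.30 and 4.19 TPM in the CD4SP libraries and 38.9, 39.4 and 41.5 TPM in the CD8SP libraries, a mean in CD8SP 8.83 times that in CD4SP, and the populations were far apart beside the spread within each. Its log2 fold change was -2.89 (with an SE of 0.17, adjusted p 2.4e-05 in limma), and it was called under the main setting and all 17 alternatives, with log2 fold changes from -3.34 to -2.85. Its paralog Celf1 was at 19.6, 15.3 and 19.8 TPM in the CD4SP libraries and 11.0, 12.03 and 21.3 TPM in the CD8SP libraries, which overlapped, and the ratio of Celf2 to Celf1 was 0.25 ± 0.0351 (SD, n = 3) in the CD4SP and 2.92 ± 0.853 (SD, n = 3) in the CD8SP libraries.

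The largest steps toward CD4SP among called pathway genes were those of Gemin8, Cwc25 and Mbnl3. Gemin8, of the SMN complex that loads Sm rings, was at 22.5, 25.8 and 16.6 TPM in the CD4SP libraries and 9.55, 8.68 and 9.76 TPM in the CD8SP libraries (log2 fold change 1.11 with an SE of 0.20, adjusted p 0.00731 in limma). Cwc25, which acts at the first catalytic step, was at 19.7, 15.8 and 20.3 TPM in the CD4SP libraries and 8.25, 9.997 and 6.58 TPM in the CD8SP libraries (log2 fold change 1.09 with an SE of 0.21, adjusted p 0.00876 in limma). Mbnl3, a muscleblind regulator of alternative exons, was at 16.7, 11.1 and 21.6 TPM in the CD4SP libraries and 8.87, 8.20 and 7.72 TPM in the CD8SP libraries (log2 fold change 0.87 with an SE of 0.25, adjusted p 0.0397 in limma). For all 3 the populations did not overlap. Of 18 settings, the main one included, Cwc25 was called in 18, Gemin8 in 16 and Mbnl3 in 5. Gemin8 lost its call under quantile normalization (adjusted p 0.0667 in limma) and with the replicate block and median-of-ratios rescaling together (adjusted p 0.0838 in limma). Mbnl3 lost its call after median-of-ratios rescaling (adjusted p 0.0892 in limma) and without any 1 library other than CD4SP replicate 2. By list, the share called higher in CD4SP ran from 0 of 5 exon junction complex genes to 10 of 32 other splicing regulators (31.3%), beside 17.6% of all tested genes, and after median-of-ratios rescaling 1 of those 32 was called higher in CD4SP and 2, Celf2 and Raly, higher in CD8SP, beside 8.43% and 7.46% of all tested genes.

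The labelled cell types were checked against their markers. Cd4 was at 331.0, 280.6 and 279.2 TPM in the CD4SP libraries and 0.104, 0 and 0 TPM in the CD8SP libraries, and Cd8a was at 2.93, 0.319 and 2.20 TPM in the CD4SP libraries and 1147.5, 1160.8 and 1038.3 TPM in the CD8SP libraries. Both encode surface proteins that the sort itself used. All 6 T cell markers were expressed, at a summed 4959.8 to 5226.4 TPM in CD4SP and 4098.0 to 4592.9 TPM in the CD8SP libraries. For this sum every CD4SP library lay above every CD8SP library. B cell markers were at 18.6 to 24.8 TPM in CD4SP and 30.1 to 31.5 TPM in the CD8SP libraries, with every CD8SP library above. Of these markers 4 of 6 were detected, here meaning 1 TPM or more in at least 3 of the 6 libraries, with Ms4a1 and Pax5 at 0 in all libraries. Myeloid markers were at 18.9 to 36.1 TPM and 23.8 to 27.1 TPM, respectively, 3 of 9 detected. S100a8, S100a9 and Mpo were at 0 in all libraries, and the other undetected myeloid markers were above 0 in some library. Stromal or endothelial markers were at 2.59 to 6.87 TPM and 1.52 to 3.21 TPM, 1 of 6 detected. Col1a1 was at 0 in all libraries, and the other undetected stromal or endothelial markers were above 0 in some library. Erythroid markers were at or near 0, with none of the 5 in the table detected. The 16 dividing-cell markers were all detected, at 1401.7 to 1800.9 TPM in CD4SP and 1418.8 to 1469.2 TPM in the CD8SP libraries, which overlapped. Genes at 1 TPM or more numbered 10594, 10329 and 10649 in the CD4SP and 10149, 10123 and 9971 in the CD8SP libraries, without overlap. The part of these markers and gene numbers in the differences above was not tested. CD8SP replicates 1 and 2 were the closest pair, with a median absolute log2 difference over the family of 0.067, where the remaining pairs of 1 population had 0.17 to 0.37, and TPM cannot show whether they agree within sampling noise.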

How the data were processed

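The authors amplified cDNA of sorted cells with a whole-transcriptome kit, aligned reads to mm10 with HISAT2, estimated gene expression with StringTie and deposited TPM, a share of each library that keeps no depth, so no counting interval was computed. Strand use, duplicate removal and annotation were not given in the sources used here. From the deposited TPM, log2(TPM + 1) was tested in limma 3.58.1 under R 4.3.3 (functions lmFit and eBayes with a mean-variance trend, population as the only term), over 10476 genes at 1 TPM or more in at least 3 of 6 libraries, with Benjamini-Hochberg adjustment over all of them. Fold changes on this scale understate low genes. Single values were compared by exact two-sided permutation tests (scipy 1.17.1). Positions are from GENCODE M21 (GRCm38). Copies were annotated transcripts with at least 95% identity over 200 nt (blastn 2.17.0), and 32 name-matched genes had any. Members with values in every library were those called past 2-fold, the 2 most abundant and the 2 of largest change per role, Hnrnpl and Hnrnpll, and the 3 called pathway genes of largest change per direction. Srsf11, U2af1, Snurf, Celf1 and Ptprc were added after their values were seen. The 17 alternatives were 3 scalings, a filter of 5 TPM or none, a pseudocount of 0.1, no trend, the replicate block with and without rescaling, leaving out each library, averaging CD8SP replicates 1 and 2, and a length and GC correction. Members and lists were chosen with earlier results of these data known. The script was tested on simulated data. One marker gene is not reported here.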

Additional observations from a re-analysis of the deposited data

How the results depend on the processing

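Of the 63 members, Snrpn was the 1 called past 2-fold in all 17 alternatives, as were Hnrpll and Celf2 outside the name rule. The number called on the adjusted p alone, 7, was 1 under each of median-of-ratios and quantile scaling, 2 with ribosomal protein genes removed (11.4% of all tested genes were called higher in CD4SP and 4.4% in CD8SP), 3 without the mean-variance trend (16.2% and 2.72%), 2 with CD8SP replicates 1 and 2 averaged (9.05% and 1.58%), 3 with the length and GC correction (chosen after seeing the data; none in CD4SP, and Snrpn, Snrpa1 and Snrpc in CD8SP, beside 8.13% and 8.01% of all tested genes), and 1 to 21 when 1 library was left out, above 7 only without CD4SP replicate 2. The 25 pathway calls became 11, 8, 10, 13, 7 and 10 in the same order of settings (3 in CD4SP and 5 in CD8SP under quantile scaling, beside 8.05% and 6.88% of all tested genes, and 4 and 6 with the length and GC correction), with 7 to 38 when 1 library was left out. The family's median log2 fold change, 0.20, was -0.10 under median-of-ratios scaling, -0.012 under quantile scaling, 0.045 when ribosomal protein genes were left out and -0.11 with the length and GC correction, and lay between 0.12 and 0.33 when 1 library was left out. Its summed TPM, 12.4% higher in CD4SP, was -9.18% after median-of-ratios rescaling and 0.599% with ribosomal protein genes removed, and between 7.79% and 15.0% when 1 library was left out. The number of role groups without overlap, 2, was 2 to 7 when 1 library was left out, where fewer libraries separate more readily. The cause of these moves was not tested.

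With the replicate number as a block, 3 members (Srsf5, Snrpn and Snrpd3) and 12 pathway genes were called (12.4% of all tested genes were called higher in CD4SP and 2.54% in CD8SP), and with median-of-ratios rescaling too, 2 and 5 (6.57% and 5.71%), with a median of -0.10. Same-numbered libraries had deviations correlated at 0.05, -0.02 and 0.09. Deviations from means of 3 libraries cannot show whether the numbers share a mouse, and the main fit did not pair them.

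Signs turned under at least 1 alternative for 35 of 63 members, and the turned values below are given for only some of them. Of the 63, 44 had log2 fold changes above 0 on the deposited scale and 25 after median-of-ratios rescaling, beside medians of 0.28 and 0.0002 for all tested genes. After median-of-ratios rescaling, with or without the block, log2 fold changes were -0.12 for Srsf2, -0.064 for Srsf3, -0.15 for Hnrnpab, -0.061 for Hnrnpm, -0.25 for Snrpe, -0.079 for Sf3b5, -0.20 for U2af1l4 and -0.10 for Prpf38a. With the length and GC correction they were -0.047 for Srsf2, -0.15 for Srsf3, -0.024 for Hnrnpa2b1, -0.094 for Hnrnpab, -0.056 for Hnrnpm, -0.17 for Snrpe, -0.12 for Sf3b5, -0.064 for U2af1l4, -0.077 for Prpf38b and -0.15 for Prpf38a. Quantile normalization gave -0.028 for Hnrnpab, -0.14 for U2af1l4, -0.079 for Prpf38a and -0.012 for Hnrnpl, and removing ribosomal protein genes -0.0057 for Hnrnpab, -0.11 for Snrpe and -0.049 for U2af1l4. With 1 library left out, Snrpb lay between -0.058 and 0.059 (above 0 without CD4SP replicate 2, CD8SP replicate 1 or CD8SP replicate 2, and 0.017 with the latter pair averaged). Snrpe lay between -0.10 and 0.23, U2af1l4 between -0.0004 and 0.22 and Prpf19 between -1.37 and 0.26, with the sign turned in each without CD4SP replicate 2. Depth is unknown.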
